A study of Arabidopsis thaliana with 64 samples.

Results

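The sucrose synthase family of Arabidopsis thaliana was examined as its 6 annotated genes, SUS1 (AT5G20830), SUS2 (AT5G49190), SUS3 (AT4G02280), SUS4 (AT3G43190), SUS5 (AT5G37180) and SUS6 (AT1G73370), taken by gene identifier from a table of 28775 genes. All 6 have a value in every library, and 5 of them passed the filter on low values that left 19824 genes for testing. SUS2 did not pass it. The family was chosen by a measured value, the high SUS5 signal of starved atg7-2 leaves, so every value that sets those libraries against their own controls or against starved wild type (WT) is given as a description, with no test.

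RNA-seq of leaf tissue compared 5 genotypes under 3 treatments, in plants 4 weeks old grown with 16 hours of light a day. The genotypes are atg7-2, DSK2 RNAi, bes1-D, bri1-301 and WT. The treatments are starvation for fixed carbon over 5 days, dehydration for 4 hours, and an untreated control. Each genotype has 2 starvation, 3 dehydration and 3 control libraries, 40 in all. ATG7 is the E1-like enzyme that activates ATG8 and ATG12 in autophagy, and DSK2 proteins are ubiquitin receptors that can act as autophagy receptors. BRI1 perceives brassinosteroids at the cell surface, and BES1 regulates transcription at the far end of that pathway. The bes1-D allele is a gain of function and bri1-301 a weak loss of function. The labels name no accession for WT, no promoter for the RNAi construct, and no link between a replicate and a plant, so the p-values below measure only the spread between these libraries, which may be technical.

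Sucrose synthase cleaves sucrose with UDP into UDP-glucose and fructose, in a reversible reaction, and so opens imported sucrose to respiration and to cellulose, callose and starch synthesis. In Arabidopsis the genes form 3 pairs by sequence. SUS1 and SUS4 are known as the members induced by low oxygen, SUS2 and SUS3 as the seed members, with SUS3 also studied in guard cells, and SUS5 and SUS6 as the members of the phloem, where their enzymes sit near callose at the sieve plates. Mature source leaves export sucrose and are not a main site of its cleavage by this enzyme.

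Values are the authors' deposited RPM, a read signal per gene and library from 26634819 to 30375860 reads a library. The floor, taken as 3 reads, was 0.101 to 0.114 RPM by library and allows for counting error alone. Tests are limma fits of log2(RPM + 0.5) over all 40 libraries, with p adjusted over all tested genes by the Benjamini-Hochberg method and calls at an adjusted p under 0.05. On that scale the changes of low genes are understated. Leaf identity was clear in the controls, where the 6 mesophyll markers summed to 25092 to 55100 RPM. They summed to 925 to 2862 RPM in starved libraries. In bulk tissue, fewer cells of a type and less RNA per cell cannot be told apart. DSK2A had 6.06 to 10.2 RPM in DSK2 RNAi libraries and 47.3 to 88.9 RPM in WT, whereas DSK2B was at 14.3 to 18.5 RPM in control and dehydrated DSK2 RNAi and at 125 to 186 RPM in starved DSK2 RNAi, against 210 to 220 RPM in starved WT. ATG7 RNA was not lower in the libraries labelled atg7-2 (14.2 to 81.4 RPM) than in WT (9.87 to 52.7 RPM). The labels do not give the lesion of that allele, so this level does not check the label. The atg7-2 dehydration library 3 stands apart, since all 5 dehydration check genes, RD29A, RD29B, RAB18, NCED3 and P5CS1, lie there at or below their highest atg7-2 control. Library 1 does so for RD29B, RAB18 and P5CS1, so none of the 5 genes separated dehydrated from control atg7-2, whereas all 5 did in DSK2 RNAi, bes1-D and bri1-301 and 3 did in WT.

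SUS1 is the main leaf member. It lies on chromosome 5 at 7050217 to 7055398, minus strand (TAIR10.1, the assembly of the RefSeq annotation), and gives a transcript of up to 3490 bases in 13 exons. Per kb of transcript, SUS1 held 72.9% to 85.1% of the family's RPM in the 15 control libraries, with SUS3 next at 4.13% to 12.4%. It is the one member with at least 13.8 RPM in every library. Its nearest relative by letters is SUS4 (chromosome 3, 15179010 to 15184105, minus strand). The longest run of bases that any 2 member transcripts share is 38, between SUS1 and SUS4. No run of 50 bases, the length of the reads, from any member occurs in another gene's annotated transcript. The following stretch of 50 coding bases around that run shows how close the pair come, with the bases that differ in capitals, from the TAIR10.1 genome.
SUS1, chr5:7052794-7052843, minus strand: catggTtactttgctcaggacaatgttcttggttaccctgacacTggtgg
SUS4, chr3:15181411-15181460, minus strand: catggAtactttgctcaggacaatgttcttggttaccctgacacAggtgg
A read from this stretch can be told apart at the 2 capital positions only. The rule by which reads matching several genes were counted, and any use of strand, are not stated in the labels or headers.

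SUS1 and SUS3 are the members that rise together below, so the 300 bases before their annotated transcript starts are shown, with those of SUS5, the member with the largest change. Each was searched on both strands for the core ACGTG of abscisic acid response elements, the core CCGAC of dehydration response elements, and TATCCA, an element of sugar-starvation responses known from rice amylase genes. Matches are in capitals.
SUS1, chr5:7055399-7055698, minus strand: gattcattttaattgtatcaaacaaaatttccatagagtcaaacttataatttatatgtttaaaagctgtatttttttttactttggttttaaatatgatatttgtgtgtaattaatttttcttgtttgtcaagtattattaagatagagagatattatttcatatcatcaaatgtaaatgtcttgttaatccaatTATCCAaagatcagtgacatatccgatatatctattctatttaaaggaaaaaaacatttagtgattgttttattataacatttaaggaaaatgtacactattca
SUS3, chr4:994426-994725, plus strand: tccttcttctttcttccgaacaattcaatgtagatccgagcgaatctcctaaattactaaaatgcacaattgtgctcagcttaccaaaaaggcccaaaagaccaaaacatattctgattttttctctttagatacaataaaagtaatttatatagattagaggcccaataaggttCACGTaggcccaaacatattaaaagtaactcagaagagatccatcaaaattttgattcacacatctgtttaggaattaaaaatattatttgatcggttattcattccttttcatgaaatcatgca
SUS5, chr5:14717841-14718140, plus strand: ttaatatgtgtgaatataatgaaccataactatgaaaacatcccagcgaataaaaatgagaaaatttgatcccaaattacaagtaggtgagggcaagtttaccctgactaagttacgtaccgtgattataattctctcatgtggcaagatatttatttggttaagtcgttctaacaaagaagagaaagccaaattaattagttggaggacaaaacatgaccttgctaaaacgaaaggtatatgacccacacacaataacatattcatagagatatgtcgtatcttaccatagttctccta
SUS1 holds TATCCA once, with its first base 104 bases before the start, and SUS3 holds the ACGTG core once, read on the other strand as CACGT, 125 bases before the start. The SUS5 window holds none of the 3, and neither do those of SUS2, SUS4 and SUS6, which are not shown. The same search found the ACGTG core in 25.6%, CCGAC in 13.9% and TATCCA in 16.2% of 27443 promoters of the same length. A match is a description of letters and not of a bound site.

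Starvation raised SUS1 in all 4 genotypes tested. The libraries had 379 and 240 RPM in starved DSK2 RNAi, against 19.8, 22.1 and 35.6 RPM in its control. They had 169 and 89.9 RPM in starved bes1-D, against 14.5, 17.0 and 13.8 RPM in its control. Every starved library of these mutants is above its controls. In starved bri1-301 they had 82.8 and 89.3 RPM, against 25.6, 38.4 and 29.4 RPM in its control, the smallest change of the 4. Starved WT had 139 and 212 RPM, against 20.9, 28.7 and 22.3 RPM in control WT. These groups do not overlap either. Starved libraries lay wholly above their controls for 32.6% of all tested genes in DSK2 RNAi, 26.4% in bes1-D, 25.0% in bri1-301 and 32.3% in WT. The log2 changes were 3.57 ± 0.41 (SE) in DSK2 RNAi, 2.99 ± 0.41 in bes1-D, 1.47 ± 0.41 in bri1-301 and 2.83 ± 0.41 in WT, with adjusted p of 7.54e-09, 1.77e-07, 0.00286 and 5.99e-07 in that order.

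SUS3 (chromosome 4, 994726 to 998991, plus strand, transcript of 3142 bases) was a minor member in control leaves and rose under starvation in all 4 genotypes tested. Starved DSK2 RNAi had 81.5 and 102 RPM, against 0.954, 1.51 and 2.11 RPM in control. Starved bes1-D had 27.4 and 8.90 RPM, against 1.78, 1.57 and 1.11 RPM in control. Starved bri1-301 had 35.6 and 118 RPM, against 1.53, 1.93 and 2.32 RPM in control. The 2 starved libraries of bes1-D and of bri1-301 lie far apart, yet all are above their controls. Starved WT had 34.5 and 48.8 RPM, against 1.34, 1.66 and 2.44 RPM in control. The ratios of mean RPM were 60.1 in DSK2 RNAi, 12.2 in bes1-D, 39.8 in bri1-301 and 22.9 in WT, and the log2 changes, 3.04 to 5.54 ± 0.44 (SE), had adjusted p of 6.08e-07 or less.

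SUS6 fell under starvation in the same 4 genotypes. This phloem member (chromosome 1, 27584364 to 27588978, minus strand) had 0.0337 and 0.201 RPM in starved DSK2 RNAi, against 2.15, 2.74 and 3.50 RPM in control. Starved bes1-D had 0.101 and 0.0341 RPM, against 0.684, 1.67 and 0.667 RPM in control. Both genotypes show the same separation, with every starved library under every control. Starved bri1-301 had 0.0675 and 0.190 RPM, against 2.41, 3.63 and 2.32 RPM in control. Starved WT had 0.0674 and 0.103 RPM, against 1.24, 1.42 and 1.20 RPM in control. Starved libraries lay wholly below their controls for 42.4% of all tested genes in DSK2 RNAi, 39.9% in bes1-D, 35.4% in bri1-301 and 46.8% in WT. The 8 starved libraries hold 1 to 6 reads each, so the ratio of summed reads is loose, 0.0662 in WT with an exact 95% interval of 0.0211 to 0.159 that covers counting error only and not the spread between libraries. The log2 changes were -1.35 to -2.41 ± 0.37 (SE), with adjusted p of 0.00219 or less.

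SUS4 and SUS5 were called in some genotypes only. SUS4 had 0.101 and 0.0 RPM (3 and 0 reads) in starved DSK2 RNAi, against 0.545, 0.583 and 1.56 RPM in control, and 0.0675 and 0.0 RPM in starved bes1-D, against 0.993, 1.23 and 0.408 RPM in control. It fell there by 1.27 ± 0.34 and 1.32 ± 0.34 (SE) on the log2 scale, with adjusted p of 0.00157 and 0.00105. In bri1-301 and WT the differences of -0.62 and -0.41 missed the threshold (adjusted p = 0.121 and 0.289), the first of them passing it without bri1-301 control library 1 (-0.88, adjusted p = 0.0399). SUS5 had 0.270 and 0.152 RPM (8 and 4 reads) in starved bri1-301, against 0.848, 1.36 and 1.02 RPM in control. It fell there by 1.14 ± 0.31 (SE, adjusted p = 0.00256). In DSK2 RNAi, bes1-D and WT its starvation differences were 0.31, -0.29 and -0.03, with adjusted p of 0.397, 0.415 and 0.937. Without DSK2 RNAi starvation library 2 the DSK2 RNAi difference was 0.98 (adjusted p = 0.0173). The interactions of DSK2 RNAi, bes1-D and bri1-301 with starvation, tested against WT, are given below, and none passed.

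Over the family, 15 of 20 member tests under starvation were called, 8 higher and 7 lower. Starvation called 61.0% of all tested genes in DSK2 RNAi, 66.0% in bes1-D, 54.1% in bri1-301 and 60.4% in WT, so a call as such says little. Of all tested genes 14.9% were called higher in all 4 genotypes, as SUS1 and SUS3 were, and 24.9% lower in all 4, as SUS6 was. The median change of all genes lay between -0.52 and -0.15 over the 5 genotypes, and between -0.07 and 0.0 after median-of-ratios scaling. Relative to the median gene of each of the 4 comparisons, SUS1 was at 1.63 to 3.72, SUS3 at 3.38 to 5.69 and SUS6 at -2.26 to -1.01 on the log2 scale. In the authors' deposited table SUS1, SUS3 and SUS6 are marked as changed in 5 of 5 starvation comparisons, SUS4 in 2 and SUS5 in 2. Marks of this kind covered from 9834 of 21214 genes in bri1-301 to 16655 of 22506 in atg7-2. The 2 marks of SUS5 are in bri1-301 and in atg7-2, whose starved libraries chose the family.

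**Figure D1:**
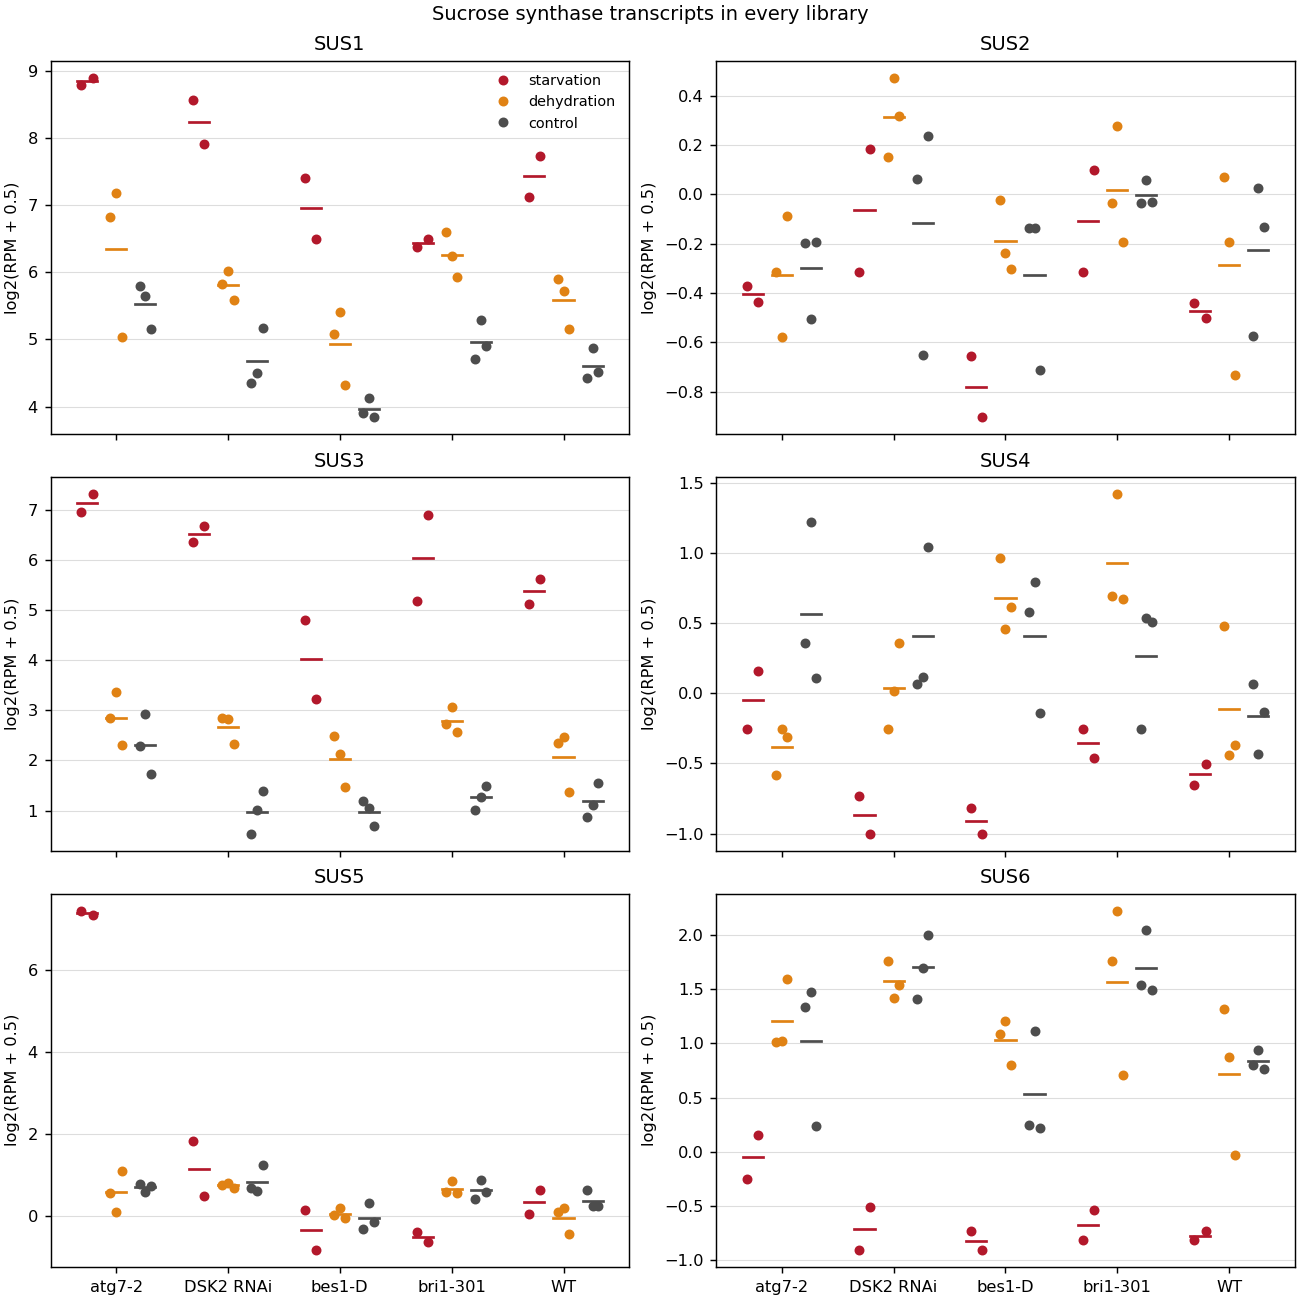
Each point is a library and each bar the mean of its group, on the log2(RPM + 0.5) scale, with a panel for each member, genotypes along the horizontal axis and the starvation, dehydration and control groups side by side. Starved SUS1 and SUS3 libraries lie above all controls of their genotype and starved SUS6 libraries below them, and the SUS5 panel is set by the 2 starved atg7-2 libraries at 174 and 161 RPM.

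In atg7-2 the starved libraries had 443 and 475 RPM of SUS1, against 54.8, 49.7 and 35.3 RPM in its control, and 123 and 158 RPM of SUS3, against 4.40, 7.10 and 2.82 RPM. The ratios of mean RPM were 9.85 for SUS1 and 29.4 for SUS3. SUS6 had 0.340 and 0.615 RPM in starved atg7-2, against 2.03, 2.28 and 0.680 RPM in control, a ratio of 0.287. These 3 members therefore stood on the same side of their controls as in the 4 genotypes tested. SUS4 overlapped, with 0.340 and 0.615 RPM in starved atg7-2 and 0.779, 1.83 and 0.578 RPM in control, and happens to have the same read numbers as SUS6 in both starved libraries. Starvation of atg7-2 called 69.5% of all genes in either direction, which is a share of calls and not of genes without overlap.

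SUS5 was the exception, and its value singled out the family. It lies on chromosome 5 at 14718141 to 14723139, plus strand, with a transcript of up to 2837 bases. The starved atg7-2 libraries had 174 and 161 RPM (5103 and 4703 reads), against 1.22, 1.02 and 1.16 RPM in control atg7-2. Dehydrated atg7-2 had 0.980, 0.577 and 1.66 RPM. Starved WT had 0.539 and 1.07 RPM, and the highest of the 38 libraries other than starved atg7-2 was 3.07 RPM, in starved DSK2 RNAi. The mean of 167 ± 9.2 RPM was 148 times that of control atg7-2 and 208 times that of starved WT. Among the 19824 tested genes, SUS5 ranked 33 by its log2 change under starvation in atg7-2, and 1 both by its difference from starved WT and by its interaction of genotype with starvation. Calls over all genes were 54.2% for the difference from starved WT and 37.9% for the interaction. SUS1 and SUS3 differed far less between those groups, by ratios of 2.61 and 3.37. Per kb of transcript SUS5 held 26.9% and 23.3% of the family's RPM in the starved atg7-2 libraries, where SUS1 held 55.8% and 55.9%, and at most 0.796% in any other starved library.

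**Figure D2:**
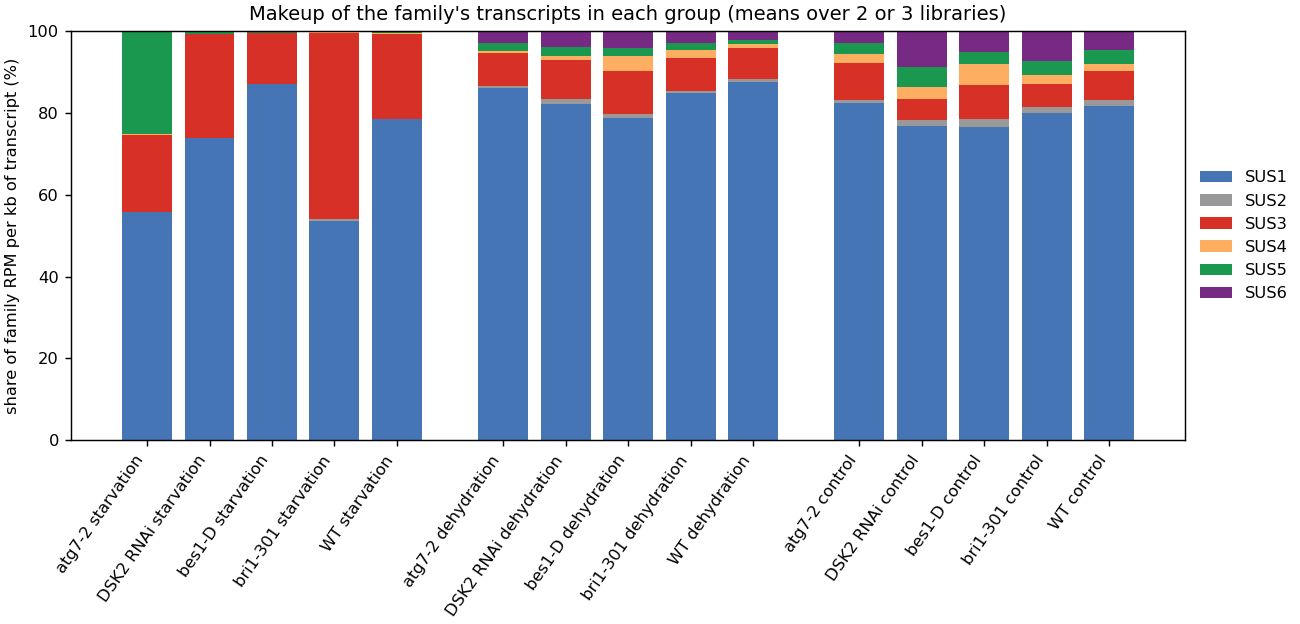
Bars show the mean share of each member in the summed RPM per kb of transcript of the family, in percent, for the 15 groups, with starvation groups at the left and control groups at the right. SUS1 has the largest mean share in every group, although SUS3 reaches 59.1% and SUS1 40.3% in 1 of the 2 starved bri1-301 libraries, SUS3 widens under starvation, and SUS5 reaches 25.1% in starved atg7-2.

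The nearest annotated gene, CIP4 (AT5G37190), lies on the opposite strand, and the 2 genes converge, with 4 bases between the 3′ end of SUS5 and that of CIP4. CIP4 had a mean of 4.38 RPM in starved atg7-2, against 4.68 RPM in control atg7-2, and 1.30 RPM in starved WT. The 15 markers of the phloem, the tissue in which SUS5 is known, summed to 123 to 156 RPM in starved atg7-2, against 326 to 415 RPM in its control and 158 to 175 RPM in starved WT. In starved atg7-2 SUC2, the companion cell sucrose carrier, had 19.7 to 21.0 RPM, against 24.7 to 27.2 RPM in starved WT, and SMXL4 (AT4G29920) was at 0 in both. AHA3 (HA3), a plasma membrane proton pump and the marker with the highest level there, had 63.9 to 86.5 RPM in starved atg7-2, against 56.5 to 101 RPM in its control and 22.0 to 36.3 RPM in starved WT. PP2-A1, another of these markers, had 25.7 to 33.8 RPM in starved atg7-2, against 90.8 to 92.9 RPM in starved WT. Single markers thus went both ways between those groups. In the 4 tested genotypes phloem markers fell beside SUS6. Of 13 tested markers, 10 fell in DSK2 RNAi, 11 in bes1-D, 8 in bri1-301 and 8 in WT, and none rose, while 36.0%, 39.9%, 32.3% and 35.7% of all genes were called lower in that order. Their median changes were -1.61 to -1.23 on the log2 scale. The summed level was 42.2 to 416 RPM in all starved libraries, against 154 to 483 RPM in controls, and within genotypes the ranges overlapped in bri1-301 alone. All 8 xylem markers fell in each of the 4 genotypes, with medians of -3.27 to -3.14 and sums over all genotypes of 0.909 to 4.06 RPM in starved libraries, against 37.0 to 119 RPM in controls. The part of these markers in the fall of SUS6 was not tested.

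**Figure D3:**
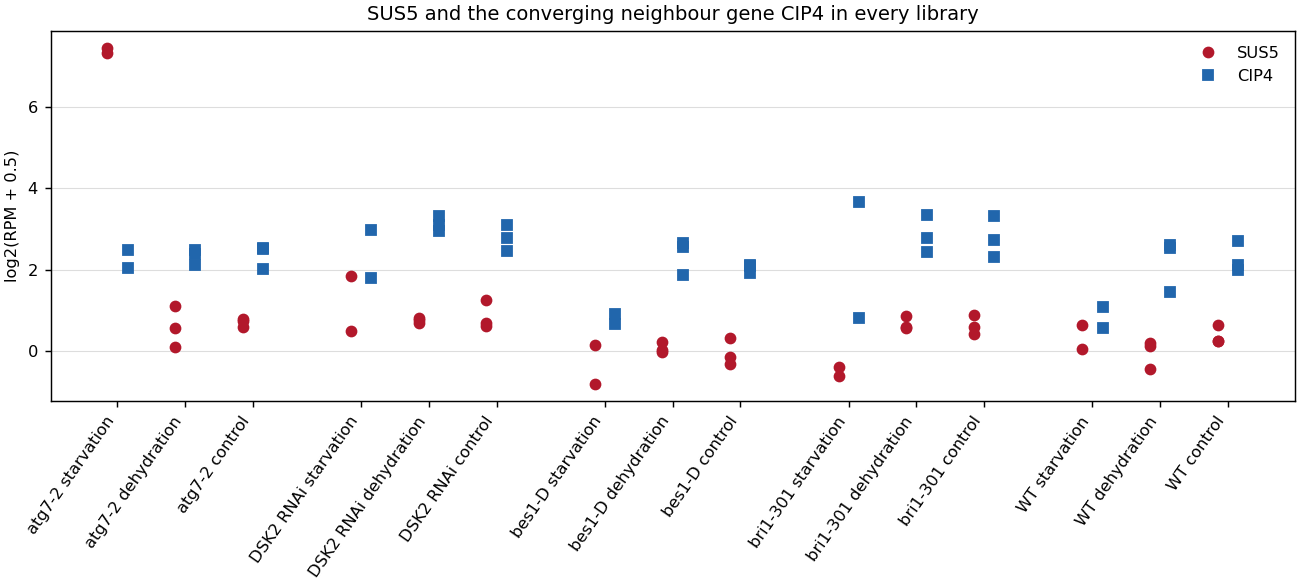
Points are libraries, with log2(RPM + 0.5) of SUS5 and of its converging neighbour CIP4 by group, each genotype with its starvation, dehydration and control groups from left to right. SUS5 stands far above CIP4 in the 2 starved atg7-2 libraries, and the next library, starved DSK2 RNAi 1, has 3.07 RPM of SUS5 and 3.0 RPM of CIP4.

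Mutants were then compared with WT within starvation. SUS3 was lower in starved bes1-D (27.4 and 8.90 RPM) than in starved WT (34.5 and 48.8 RPM), by -1.36 ± 0.49 (SE) on the log2 scale with adjusted p = 0.0391, the 1 call among 15 member tests. Calls in this comparison covered 25.4% of all genes in bes1-D, 15.2% in DSK2 RNAi and 2.16% in bri1-301. Without bes1-D starvation library 2, which has the lowest length slope and scaling factor of all libraries (-0.626 and 0.589), the difference was -0.58 with adjusted p = 0.699. The call was also lost without WT starvation library 1 (-1.61, adjusted p = 0.0676) or 2 (-1.11, adjusted p = 0.246), and with edgeR (-1.03, adjusted p = 0.0843) and DESeq2 (-0.98, adjusted p = 0.0921). It was kept with the trend of RPM on transcript length removed (-1.06, adjusted p = 0.027). With replicate numbers as a block factor it was kept too (-1.36, adjusted p = 0.0284). edgeR and DESeq2 called other members, in bri1-301. SUS5 was lower there by edgeR (-2.10, adjusted p = 0.0476) and DESeq2 (-2.13, adjusted p = 0.0161), and SUS1 by DESeq2 alone (-1.26, adjusted p = 0.0375). SUS3 in DSK2 RNAi against WT was at 1.14 ± 0.49 (adjusted p = 0.0975). In fits of the groups compared alone it was called (adjusted p = 0.0483), whereas SUS3 in bes1-D was not. SUS1 in bri1-301 was at -0.99 ± 0.45 (adjusted p = 0.215). The 5 differences with an unadjusted p under 0.05 are SUS3 in bes1-D and DSK2 RNAi, SUS1 in bri1-301, and SUS5 in DSK2 RNAi and bri1-301. SUS3 in bri1-301 against WT was called only without bri1-301 starvation library 1 (1.51, adjusted p = 0.0307).

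Member transcripts are long, and libraries differ in how their RPM rises with transcript length. The slope of log2 RPM on log2 length was 0.679 and 0.763 in starved atg7-2, against -0.179 and 0.000938 in starved WT. With that trend removed from each library, SUS1 in starved atg7-2 against starved WT was 0.55 in place of 1.41, and SUS3 was 1.01 in place of 1.75. SUS5 was 6.42 in place of 7.04. In DSK2 RNAi the SUS1 difference from WT was 0.11 in place of 0.81. In bri1-301 it moved away from 0, to -1.41 in place of -0.99, with adjusted p of 0.0531 in place of 0.215. Against their own controls, SUS1 under starvation was at 1.64 to 3.50 over the 4 tested genotypes with the trend removed, and SUS1 in bes1-D moved most, to 3.50 in place of 2.99.

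**Figure D4:**
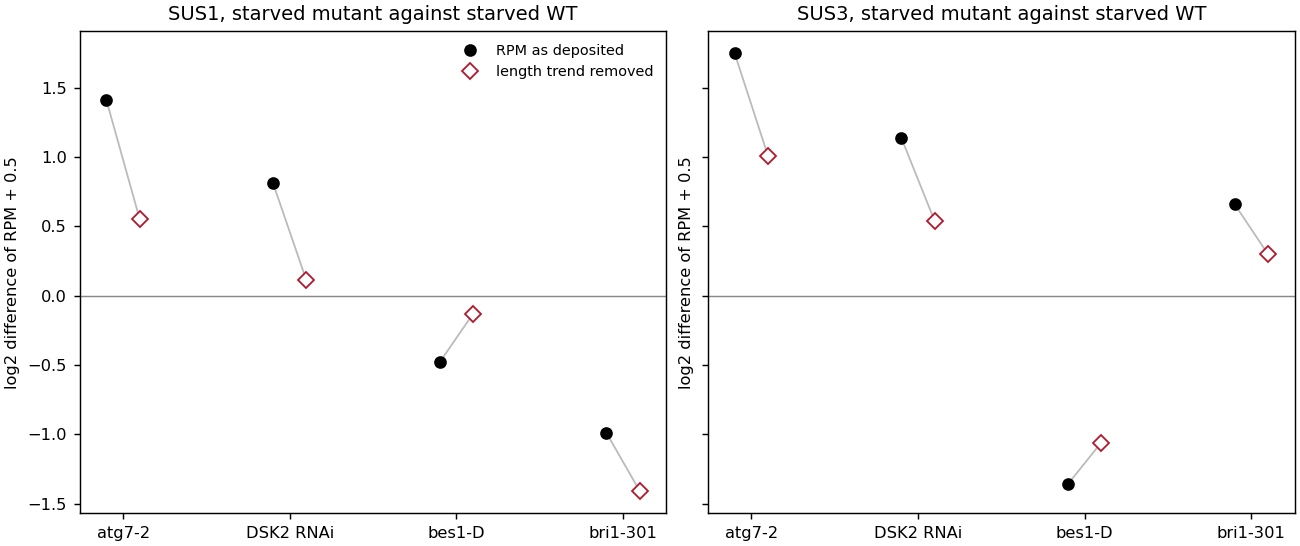
Log2 differences of SUS1 (left) and SUS3 (right) between each starved mutant and starved WT, from RPM as deposited (filled) and with the trend of RPM on transcript length removed (open), without error bars. With the trend removed, differences of atg7-2, DSK2 RNAi and bes1-D lie nearer to 0, with SUS1 in atg7-2 at 1.41 and then 0.55, while SUS1 in bri1-301 lies farther from 0, at -0.99 and then -1.41.

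Dehydration gave smaller differences, on the same 2 members. SUS1 had 113, 145 and 32.2 RPM in dehydrated atg7-2, against 54.8, 49.7 and 35.3 RPM in its control. Dehydrated DSK2 RNAi had 56.0, 64.3 and 47.7 RPM, dehydrated bes1-D 33.4, 42.0 and 19.5 RPM, and dehydrated bri1-301 96.3, 75.4 and 60.3 RPM, all above the controls given before. Dehydrated WT had 58.9, 52.0 and 35.3 RPM, also above its controls. Dehydrated and control libraries thus did not overlap in 4 of 5 genotypes, as for 19.0% of all genes in DSK2 RNAi (those higher), 5.01% in bes1-D, 7.83% in bri1-301 and 5.0% in WT. The ratios of mean RPM were 2.03 to 2.49, and the log2 differences of 0.81 to 1.29 ± 0.36 (SE) missed the threshold, with adjusted p of 0.0760 to 0.709. Without the atg7-2 dehydration library that stands apart, SUS1 was at 1.47 in atg7-2 with adjusted p = 0.0135. That library was set apart by its low dehydration check genes, so leaving it out favours a larger dehydration difference. The share of all genes called in that fit is not given here, so nothing is drawn from this call. Without DSK2 RNAi control library 3, SUS1 was at 1.39 in DSK2 RNAi with adjusted p = 0.0451. Leaving out other libraries took SUS1 down to 0.4 in atg7-2 and 0.98 in DSK2 RNAi. Of 15 alternatives each, 1 gave the call in atg7-2 and 3 in DSK2 RNAi, where the highest adjusted p was 0.366.

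SUS3 was called under dehydration in DSK2 RNAi, where it had 6.70, 6.55 and 4.51 RPM, against 0.954, 1.51 and 2.11 RPM in control (1.69 ± 0.40, adjusted p = 0.0129). The call was lost, at adjusted p of 0.0604 to 0.112, when control library 1, dehydration library 1 or dehydration library 2 was left out. Dehydrated bri1-301 had 6.16, 7.93 and 5.46 RPM, against 1.53, 1.93 and 2.32 RPM in control, without overlap but above the threshold (1.53 ± 0.40, adjusted p = 0.0591). With replicate numbers as 1 block factor over all 40 libraries, its adjusted p was 0.0444, and without control library 3 it was 0.0412. That the numbers pair the libraries of this genotype was taken from the data and not from the labels. Of 15 alternatives for SUS3 in bri1-301, 7 gave the call, with adjusted p of 0.00134 to 0.363 over all of them. Dehydrated bes1-D had 5.11, 3.87 and 2.27 RPM, against 1.78, 1.57 and 1.11 RPM, without overlap (1.05 ± 0.40, adjusted p = 0.317). Dehydrated WT had 4.61, 5.07 and 2.08 RPM, against 1.34, 1.66 and 2.44 RPM, with overlap (0.88 ± 0.40, adjusted p = 0.339). The 2.08 RPM is from WT dehydration library 3, which has the lowest length slope of the dehydrated libraries (-0.266). Dehydrated atg7-2 had 6.69, 9.84 and 4.45 RPM, against 4.40, 7.10 and 2.82 RPM in control, with overlap. In the authors' deposited table SUS1 and SUS3 are each marked as changed in 4 of 5 dehydration comparisons. The marks in those 4 covered 542 of 20905 genes in bes1-D and 3573 of 18955 in DSK2 RNAi. They covered 1640 of 19867 genes in bri1-301 and 554 of 19839 in WT.

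The 1 call by limma stands among 25 member tests, of which 11 had an unadjusted p under 0.05. SUS3 in bri1-301 was called as well by edgeR (1.84, adjusted p = 0.0329) and DESeq2 (1.82, adjusted p = 0.00134), and SUS1 in bri1-301 by DESeq2 (1.42, adjusted p = 0.00844). With the length trend removed both were called in bri1-301, and in fits of the groups compared both there and SUS1 in DSK2 RNAi. All genes called under dehydration were 0.0% in atg7-2, 3.82% in DSK2 RNAi, 1.18% in bes1-D, 0.797% in bri1-301 and 0.298% in WT. SUS5 and SUS6 stayed between -0.42 and 0.50 on the log2 scale, with adjusted p of 0.561 or more. SUS4 had 0.169, 0.339 and 0.306 RPM in dehydrated atg7-2, against 0.779, 1.83 and 0.578 RPM in control (-0.94 ± 0.30, adjusted p = 0.520), a separation found for 4.61% of all genes there. In bri1-301 it had 1.12, 2.17 and 1.09 RPM when dehydrated, against 0.339, 0.949 and 0.921 RPM in control (0.67 ± 0.30, adjusted p = 0.371).

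**Figure D5:**
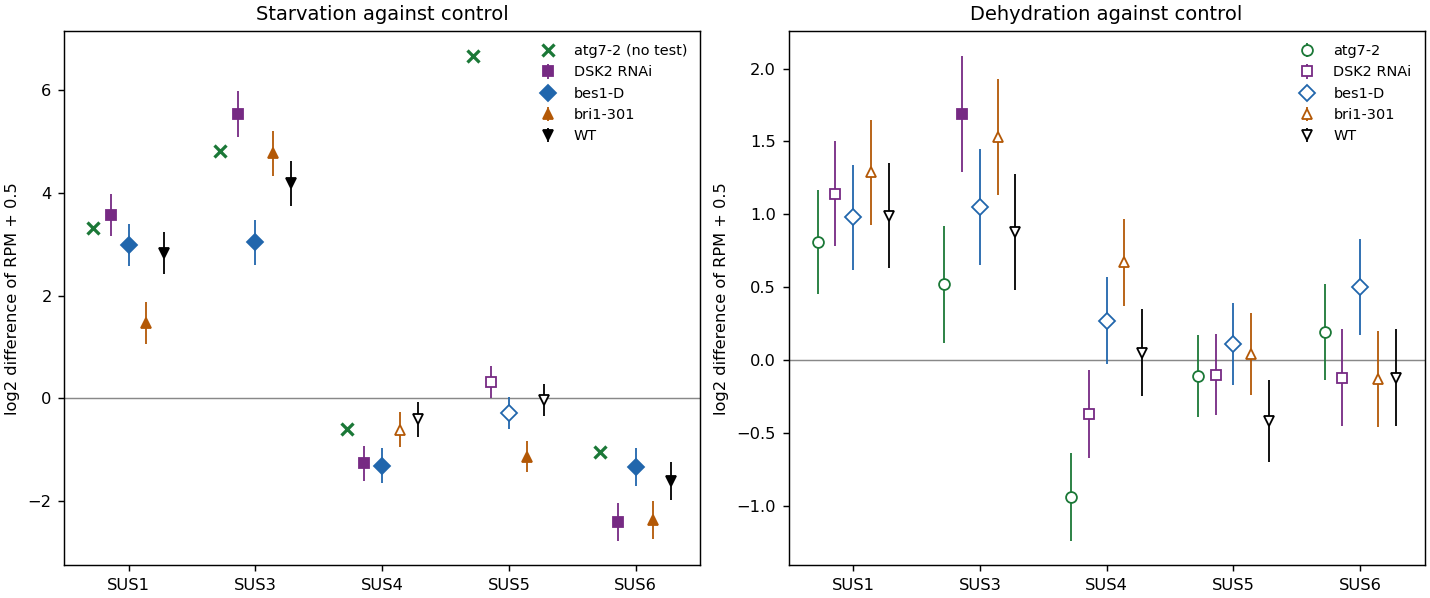
Log2 differences of 5 members with their standard errors, under starvation (left) and dehydration (right), by genotype. Filled symbols passed an adjusted p of 0.05, open ones did not, and crosses for starved atg7-2 carry no test. SUS1 and SUS3 lie above 0 and SUS6 below 0 in every genotype under starvation, and under dehydration only SUS3 in DSK2 RNAi is filled.

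In control leaves limma called none of 20 member differences between a mutant and WT, while 5 had an unadjusted p under 0.05. edgeR and DESeq2 on reads recovered from the RPM steps called 1 each, SUS3 in atg7-2. SUS3 had 4.40, 7.10 and 2.82 RPM in control atg7-2, all above the 1.34, 1.66 and 2.44 RPM of control WT (1.13 ± 0.40, adjusted p = 0.0965 by limma). SUS1 in control atg7-2 was also above all WT controls (0.93 ± 0.36, adjusted p = 0.147). The rest of the 5 were SUS4 in atg7-2 (0.73 ± 0.30, adjusted p = 0.178) and SUS6 in 2 mutants. SUS6 was at 0.86 ± 0.33 both in DSK2 RNAi (adjusted p = 0.962) and in bri1-301 (adjusted p = 0.353). Libraries of control atg7-2 and WT did not overlap, with atg7-2 higher, for 14.9% of all genes. Of all genes 4.74% were called in control atg7-2, 0.0656% in DSK2 RNAi, 15.7% in bes1-D and 0.963% in bri1-301. In the authors' deposited table SUS1 and SUS3 are marked as changed in atg7-2 and SUS4 in bes1-D. Those marks covered 2590 of 18855 genes in atg7-2 and 4513 of 20950 in bes1-D.

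Under dehydration limma called none of 20 differences from WT (8 with an unadjusted p under 0.05), and edgeR and DESeq2 called none. All genes called in this comparison were 9.42% in atg7-2, 0.282% in DSK2 RNAi, 9.31% in bes1-D and 1.11% in bri1-301. The test of whether a mutant's response differs from that of WT called none of 20 interactions with dehydration (1 unadjusted) and none of 15 with starvation (3 unadjusted), by limma, edgeR and DESeq2 alike. The interactions with starvation lay between -1.35 (SUS1 in bri1-301, adjusted p = 0.46) and 1.35 (SUS3 in DSK2 RNAi, adjusted p = 0.33). Interactions called 0.207% of all genes in DSK2 RNAi, 4.45% in bes1-D and 0.893% in bri1-301 for starvation. For dehydration they called 0.0656% in bes1-D and 0.0% in the other 3 mutants.

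SUS2 (chromosome 5, 19943181 to 19947588, minus strand) was low in every library. It had 0.0341 to 0.887 RPM over the 40 libraries, 1 to 26 reads, with its highest value in dehydrated DSK2 RNAi. Ordered by mean RPM per kb of transcript in control WT, the members were SUS1 at 6.88, SUS3 at 0.578, SUS6 at 0.376, SUS5 at 0.287, SUS4 at 0.139 and SUS2 at 0.122. The ranges of the neighbours SUS6 and SUS5 overlap over the 3 libraries, as do those of SUS4 and SUS2, and the other neighbours do not.

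Across the 15 group means SUS1 and SUS3 had a Pearson correlation of 0.93, and SUS3 and SUS6 one of -0.77, as a description over groups that share libraries' depth and treatments. The tested genes with a symbol most like SUS1 were GPAT2 (0.984), ILR1 (0.983) and PLDP2 (0.976), and those most like SUS3 were ECT8 (0.989), UGT73B3 (0.985) and CSY3 (0.982). For SUS6 they were DRD1 (0.988), IDN2 (0.979) and PS1 (0.977). For SUS5 they were SHP1 (0.976), DSEL (0.976) and GH9B17 (0.973). SUS5 is at 3.07 RPM or less in every other library, so these 3 correlations are set by the 1 group of starved atg7-2, whose value chose the family, and describe no more than a high level there. GH9B17, an endoglucanase gene, had a mean of 21.0 RPM in starved atg7-2, against 0.0339 RPM in control atg7-2 and 0.0517 RPM in starved WT.

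The other genes of sucrose use and supply were counted in WT from lists of their families. Of all tested genes, starvation in WT called 60.4%, 24.7% higher and 35.7% lower, so the counts of called genes below are near that share or under it for most lists and are given as a description. Under starvation 4 neutral invertases of 9 rose and 2 fell, with A/N-InvC at 163 ± 42.1 RPM in starved WT, against 36.0 ± 4.84 RPM in control (adjusted p = 3.43e-07), and CINV2 at 0.527 ± 0.112 RPM, against 9.51 ± 2.78 RPM (adjusted p = 6.9e-13). Of 5 tested vacuolar and cell wall invertases 2 rose, led by ATBETAFRUCT4 at 1175 ± 51.5 RPM, against 341 ± 40.9 RPM (adjusted p = 8.15e-09), and cwINV6 fell (adjusted p = 2.49e-05). The median changes of these lists were 0.34 and 0.36, against -0.26 over all genes. Of 7 tested sucrose phosphate synthases and phosphatases, which make sucrose, 4 fell and none rose, with a median of -0.83. SPS3F, the member with the largest fall, had 0.102 ± 0.0017 RPM in starved WT, against 0.667 ± 0.114 RPM in control (adjusted p = 0.00855). Its starved level is at the floor of 3 reads, 0.101 and 0.103 RPM in those libraries, so the small SD says little about spread.

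Of 9 hexokinases, fructokinases and UDP-glucose pyrophosphorylases in starved WT 2 rose and 4 fell, and of 9 sucrose transporters 2 rose and 2 fell. The largest rise was that of SAG29, a SWEET sugar carrier of senescence, with 344 ± 67.8 RPM in starved WT, against 1.61 ± 0.702 RPM in control (SD, n = 2 and 3; adjusted p = 6.79e-08). Of 10 callose synthases, which use UDP-glucose, 3 fell and none rose, a share under that of all genes, led by GSL12 at 2.39 ± 0.521 RPM, against 19.3 ± 9.14 RPM (adjusted p = 0.000569). In DSK2 RNAi 3 of the same 10 rose and 2 fell, with a median of 0.68, against -0.99 in WT, a difference between genotypes that was not tested. The length slopes were 0.483 and 0.65 in starved DSK2 RNAi, against -0.179 and 0.000938 in starved WT. The callose synthase values, GSL12 included, were not recomputed with the length trend removed. The low-oxygen list, tested because SUS1 and SUS4 belong to that response, had 2 of 11 rise and 6 fall. ADH1 rose to 65.6 ± 7.53 RPM in starved WT, against 9.69 ± 1.69 RPM (adjusted p = 1.22e-06), while HB1 fell to 0.476 ± 0.137 RPM, against 6.16 ± 1.66 RPM (adjusted p = 7.43e-08). Under dehydration in WT limma called none of the 60 tested genes of these 7 lists (8 with an unadjusted p under 0.05), edgeR none (11 unadjusted) and DESeq2 2. The share of all genes called there by limma was 0.298%.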

How the data were processed

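RNA-seq values of 40 leaf libraries were used, and 24 further libraries in the labels were not analysed here. Per the file headers the authors deposited RPM per gene, called a signal here because columns sum to 985308 to 1023136 and the authors' divisor is not stated in the labels or headers. Per the submitters' processing notes GSNAP, DESeq2 and TAIR10 were used, with no versions or settings. Within 0.01 reads, 100.0% of values were whole reads at 26.3 to 29.8 reads per RPM, and the design had assumed RPM. The authors' deposited table also marks genes as changed or not in 14 comparisons, with no test or threshold given.

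Of 33366 lines 4591 without an identifier were left out. Genes with at least 1 RPM in 2 libraries were tested as log2(RPM + 0.5) with limma 3.58.1 (mean-variance trend, 15 groups, 25 residual degrees of freedom, two-sided), adjusting p by Benjamini-Hochberg within each of 30 comparisons, in R 4.3.3. edgeR 4.0.16 and DESeq2 1.42.0 were run on the recovered reads. Other alternatives were the pseudocount, the filter, scaling, the trend with transcript length, fits of the compared groups alone, a replicate block and leaving out each library. The fit was tested on simulated data. Members and gene lists were chosen with earlier results of these data known. Named genes are the members, for SUS1, SUS3, SUS5 and SUS6 the 3 genes with the most similar group means, and of each list the called gene with the largest rise and fall in WT. Others (SUC2, SMXL4, AHA3, PP2-A1, CIP4, targeted and check genes) were chosen after values were seen. Same-numbered control and dehydration libraries deviate together in bri1-301 (correlations 0.208 to 0.456) and bes1-D (0.160 to 0.272). So do controls of DSK2 RNAi and WT (0.240 to 0.398) and dehydrated bes1-D and WT (0.555 to 0.811). In these comparisons the numbers were taken as pairs from the data, while the replicate block was 1 factor shared by all 40 libraries. Library 3 has a low length slope both in dehydrated bes1-D (-0.198) and in dehydrated WT (-0.266). The part of this in their correlation was not tested. Some sets not listed were positive too, such as control and starved WT (0.369 and 0.311), and others were of mixed sign. Coordinates and sequences are from RefSeq TAIR10.1, in which 28009 identifiers matched.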

Additional observations from a re-analysis of the deposited data

Results flagged for a closer look

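SUS5 under starvation moved in opposite directions in 2 genotypes. All starved atg7-2 libraries were above their controls, with a ratio of mean RPM of 148, and all starved bri1-301 libraries were below theirs, with a ratio of 0.196. In starved bri1-301 the SUS5 values rest on 8 and 4 reads. Starved libraries lay wholly below their controls for 35.4% of all tested genes in bri1-301. The matching share for atg7-2 is not given here. Starvation of atg7-2 called 69.5% of all genes, which counts calls in either direction and not libraries without overlap. The difference between those 2 genotypes was not tested, since the atg7-2 libraries chose the family.

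SUS4 under dehydration did so as well. All dehydrated bri1-301 libraries were above their controls, with a ratio of mean RPM of 1.98, and all dehydrated atg7-2 libraries were below theirs, with a ratio of 0.255. Such a separation was found for 7.83% of all tested genes in bri1-301 (those higher) and 4.61% in atg7-2 (those lower). The difference between these 2 genotypes was not tested. The atg7-2 dehydration library that stands apart has 0.306 RPM of SUS4, between the other 2 at 0.169 and 0.339 RPM, and the SUS4 values rest on 5 to 64 reads a library.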

How the results depend on the processing

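The 15 calls under starvation stayed within 1.5 times under every alternative run, as did the count of 0 for both interactions. Member calls under dehydration numbered 1, and 2 with median-of-ratios scaling or edgeR, 3 with the length trend removed, the replicate block or DESeq2, and 4 in fits of the groups compared. They ranged from 0 to 2 when a library was left out: 0 without DSK2 RNAi control 1, dehydration 1 or dehydration 2. Calls of mutants against WT in control numbered 0, and 1 with the length trend removed, edgeR or DESeq2. In dehydration they numbered 0, and 0 to 3 when a library was left out, with 3 without WT dehydration 1. In starvation they numbered 1, 0 without the filter or with median-of-ratios scaling, 2 with DESeq2, and 0 to 2 when a library was left out. The 1 call was not the same throughout. It was SUS3 in bes1-D in the main fit, SUS3 in DSK2 RNAi in fits of the groups compared, and SUS5 in bri1-301 with edgeR. Within starvation the numbers of bes1-D and WT libraries run opposite (correlation -0.454). An alternative chosen after seeing the data crossed them in a fit of those 4 libraries, which called 2886 genes, against 623 without a block, and gave 2 member calls, against 0. With 2 libraries in each group, crossing only turns the sign of that correlation. The larger counts follow from the order chosen, so nothing is drawn from them about the members.

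The replicate block gave 15 calls under starvation, 0, 0 and 1 for mutants against WT in control, dehydration and starvation, and 0 for each interaction. Besides SUS3 in bri1-301 it added SUS1 under dehydration in DSK2 RNAi (1.14, adjusted p = 0.0426), where the numbers were not taken as pairs.

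Of 540 alternative values of the 38 member tests followed singly, 497 kept direction and side of the threshold, 22 gained the call, 11 lost it and 10 changed sign. Those 10 were uncalled: SUS5 under starvation in WT (0.10 with median-of-ratios scaling, 0.26 with the length trend removed, 0.18 with edgeR, 0.19 with DESeq2, and -0.33 to 0.27 leaving out a library), in bes1-D (0.07 with the length trend removed, -0.77 to 0.19 leaving out a library) and in DSK2 RNAi (-0.36 to 0.98 leaving out a library), and SUS3 in starved bri1-301 against WT (-0.20 to 1.51 leaving out a library). The cause was not tested. SUS5 in starved atg7-2 stayed at 6.30 to 7.77 against control. Depth limits SUS2, SUS4 and SUS6, whose starved libraries hold 0 to 19 reads, and SUS5 in starved bri1-301, at 8 and 4 reads.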
